A study of Caenorhabditis elegans with 12 samples.

Results

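The comparison described here asks how worms given ultraviolet light (UV) in the presence of titanium dioxide (TiO2) differed from worms given UV alone. It sets the 3 arrays of the UV+TiO2 group against the 3 arrays of the UV group, 6 of the 12 arrays of the series, across all 22548 probe sets that are not array controls. The UV+TiO2 worms were wild-type hermaphrodites of the nematode Caenorhabditis elegans, young adults of 3 days from an age-synchronized culture, exposed to UV for 4 h in the presence of TiO2 and then held for 20 h at 20 °C. The UV worms had the same strain, sex, age, irradiation and incubation without TiO2. Where the other groups are quoted, TiO2 worms received TiO2 without UV, and control worms received neither, for 24 h at 20 °C. All 4 groups were kept in a potassium and sodium chloride medium with no food, so every value below comes from fasted animals. The TiO2 dose, the particle type and the UV dose are not given in the sources used here, and nothing says whether the 3 samples of a group came from separate cultures. The p-values therefore rest on the spread among these samples alone, and that spread may be technical.

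TiO2 is a white pigment whose particles absorb UV and can then pass electrons to oxygen, which yields reactive oxygen species. The worm has no adaptive immunity, and its epidermis, the layer that secretes the cuticle, makes small secreted peptides when the skin is infected by a fungus or wounded. These peptides belong to the epidermal nlp group (neuropeptide-like proteins with antimicrobial activity or resemblance to such peptides), the caenacins (cnc genes) and the fipr group (fungus-induced protein related). In the epidermis their genes are controlled by a MAP kinase cascade, by the STAT-like factor STA-2 with the transporter SNF-12, and, for caenacins such as cnc-2, by the TGF-beta ligand DBL-1.

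RNA was from whole worms, and an array reads the pooled RNA of all tissues, so fewer cells of a type and less RNA per cell cannot be told apart. Genes of adult hermaphrodites were present in both groups: the adult cuticle collagen gene col-19 averaged 12.84 ± 0.06 in UV+TiO2 worms and 12.87 ± 0.03 in UV worms on the log2 scale (SD, n = 3 each), and the yolk protein gene vit-2 averaged 12.41 ± 0.02 and 12.15 ± 0.05. Array medians lay between 6.41 and 6.48 in UV+TiO2 worms and between 6.36 and 6.45 in UV worms. The groups were close to one another. Taken over probe sets (not replicates of one another), arrays of one group correlated at 0.9945 to 0.9977 and arrays of different groups at 0.9927 to 0.997. One UV array stood apart. UV replicate 3 had a narrower spread of values (SD 2.24) than UV replicate 1 (2.31) and UV replicate 2 (2.28). Its spread was like that of the UV+TiO2 arrays (2.23 to 2.26), and also of control replicate 3 (2.22) and TiO2 replicate 1 (2.23). UV replicate 3 correlated with UV+TiO2 replicates 1, 2 and 3 at 0.9962, 0.9967 and 0.997. With UV replicates 1 and 2 it correlated at 0.9945 and 0.9966. It was the lowest UV array in 18 of the 20 genes called below, against 33.4% of all probe sets. Counts of calls are given with it, and without it for the comparison as a whole and for the lists described below where it changes them. With array SD as a covariate, a fit added after seeing the data, 32 probe sets fell, all 20 of the called ones among them.

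Few probe sets passed the threshold, and all that passed were lower in UV+TiO2 worms. With limma across all 12 arrays and Benjamini-Hochberg adjustment over all probe sets, 20 of 22548 probe sets fell in UV+TiO2 worms relative to UV worms (0.0887%) and none rose (0%). At an unadjusted p under 0.05, 701 probe sets were lower (3.11%) and 683 were higher (3.03%), 1384 in all (6.14%). The median difference over all probe sets was 0.02 on the log2 scale, with a median standard error (SE) of 0.12. The 20 probe sets belonged to 20 different genes (0.117% of 17118 genes), in each of which all 3 UV+TiO2 arrays lay below all 3 UV arrays. Over all probe sets such separation was seen downward in 8.27% and upward in 9.85%. The called genes were between 1.35-fold and 2.99-fold lower, 9 of them at least 2-fold lower. For scale, UV relative to control gave 11414 called probe sets (50.6%). It lowered 2269 probe sets and raised 880 by at least 2-fold, counted by size alone, while TiO2 on top of UV gave 16 lower and 0 higher by the same count. Of the 20 genes 8 encode peptides of the 3 immune families, and 12 lie outside them. Of the 20 called probe sets 6 carry the suffix _x_at and 6 the suffix _s_at, which mark probe sets that can detect related genes. They include those of nlp-33, F15E6.3, F15E6.4, R12E2.15, cpg-9 and C45B2.8. The other 8 carry neither suffix. Without UV replicate 3 there were 68 falls and 1 rise, and without UV replicate 1 or UV replicate 2 the falls were 2.

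**Figure D1:**
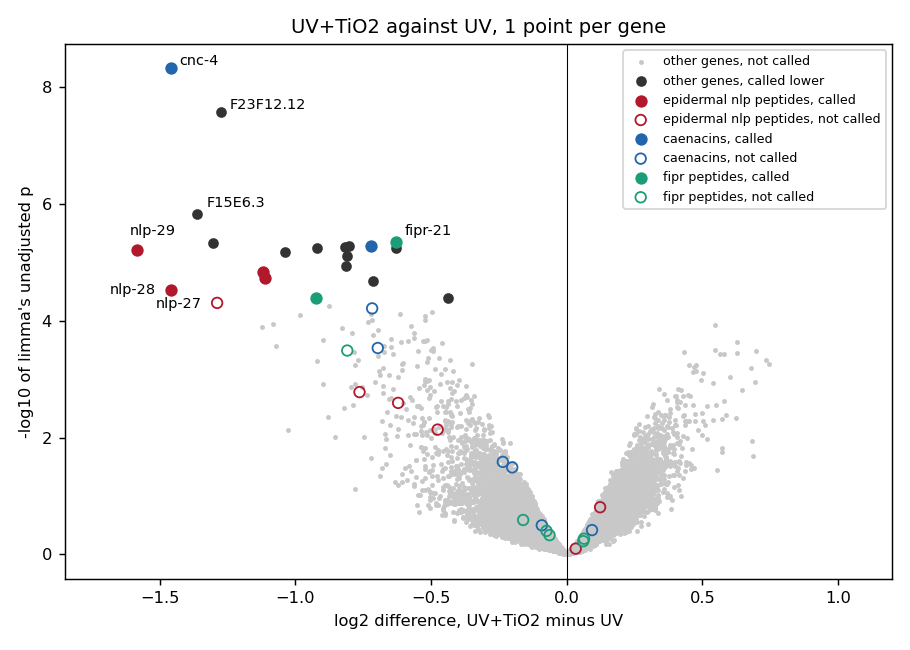
Each point is a gene, placed by its log2 difference (UV+TiO2 minus UV, horizontal axis) and by −log10 of limma's unadjusted p (vertical axis). Coloured points are genes of the 3 peptide families, filled where the adjusted p was under 0.05, and black points are the 12 other called genes; all 20 called genes lie left of 0, with cnc-4 at the top.

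The epidermal nlp genes held the largest fall. The level of nlp-29, an epidermal antimicrobial peptide gene induced by fungal infection, wounding and osmotic stress, was 7.54, 7.14 and 7.01 in UV+TiO2 worms, against 9.04, 9.05 and 8.35 in UV worms. The highest UV+TiO2 array was lower than the lowest UV array, with a gap of 0.81. This was a 2.99-fold fall (log2 difference −1.58, SE 0.21, limma adjusted p = 0.0125). The gene nlp-28 measured 7.09, 6.40 and 6.40 in UV+TiO2 worms, against 8.45, 8.31 and 7.51 in UV worms, and fell 2.75-fold (adjusted p = 0.0379). Its first UV+TiO2 array and the array of UV replicate 3 were the closest pair. For nlp-30 the arrays read 5.77, 5.98 and 5.65 in UV+TiO2 worms, against 7.13, 6.88 and 6.75 in UV worms, a fall of 2.17-fold (adjusted p = 0.022). For nlp-33 they read 8.63, 8.37 and 8.37 in UV+TiO2 worms, against 9.76, 9.85 and 9.11 in UV worms, a fall of 2.16-fold (adjusted p = 0.0257).

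Of 11 epidermal nlp genes listed 10 were measured. Of these 4 fell, against 0.117% of all genes, and none rose. The median difference was −0.94, against 0.02 over all genes. At an unadjusted p under 0.05, 8 of the 10 were lower, against 3.31% of all genes. In 7 of the 10 all UV+TiO2 arrays lay below all UV arrays, against 8.72% of all genes. The member just outside the threshold was nlp-27, which read 7.05, 6.78 and 7.01 in UV+TiO2 worms and 8.58, 8.48 and 7.64 in UV worms (difference −1.29, adjusted p = 0.0533). Smaller differences were −0.76 for nlp-31, whose groups overlapped, −0.62 for nlp-26 and −0.48 for nlp-25, none past the threshold. The genes nlp-24 (0.03) and nlp-32 (0.12) differed by less than their 95% intervals of −0.24 to 0.30 and −0.05 to 0.30. The genes nlp-31, nlp-30, nlp-29, nlp-28 and nlp-27 lie on chromosome V with no protein-coding gene between neighbours, by the RefSeq table of assembly WBcel235. All 5 are read by probe sets that can detect related genes, so how the fall is shared among them is uncertain. Without UV replicate 3, nlp-27 and nlp-31 also fell, which makes 6 of 10, against 68 of 22548 probe sets.

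Among the caenacins the smallest p of the whole comparison belonged to cnc-4. It read 8.01, 7.84 and 7.91 in UV+TiO2 worms, against 9.45, 9.48 and 9.20 in UV worms. The SD was 0.09 in UV+TiO2 worms and 0.16 in UV worms, and the groups were 1.19 apart at their nearest arrays. The fall was 2.75-fold (log2 difference −1.46, SE 0.10, adjusted p = 0.000108), and its probe set is not marked as detecting relatives. The second caenacin to fall was cnc-8, at 7.41, 7.31 and 7.46 in UV+TiO2 worms and 8.15, 8.18 and 8.01 in UV worms (1.65-fold lower, adjusted p = 0.0125). Of 8 measured caenacins 2 fell, against 0.117% of all genes, none rose and the median difference was −0.47. In 6 of the 8 all UV+TiO2 arrays lay below all UV arrays, against 8.72% of all genes. Just outside the threshold, cnc-3 read 5.31, 5.30 and 5.40 in UV+TiO2 worms and 6.16, 6.18 and 5.83 in UV worms (−0.72, adjusted p = 0.0579). The DBL-1 target cnc-2 read 5.63, 5.95 and 5.69 in UV+TiO2 worms and 6.58, 6.58 and 6.19 in UV worms (−0.70, adjusted p = 0.106). In both genes UV replicate 3 was the lowest UV array. Without it both fell, which makes 4 of 8, against 68 of 22548 probe sets. The members cnc-7 (−0.24), cnc-1 (−0.20), cnc-5 (−0.09) and cnc-6 (0.09) had smaller differences. The neighbours cnc-1, cnc-5, cnc-4, cnc-3 and cnc-2 on chromosome V, again with no protein-coding gene between them, thus ranged from −1.46 to −0.09.

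The fipr group was mixed. The gene fipr-21, which lies beside cnc-8 on chromosome X, was tight in both groups, at 10.01, 9.90 and 9.92 in UV+TiO2 worms and 10.56, 10.61 and 10.56 in UV worms, and fell 1.55-fold (adjusted p = 0.0125). The gene fipr-26 read 7.14, 6.95 and 6.87 in UV+TiO2 worms and 7.97, 8.08 and 7.69 in UV worms, and fell 1.90-fold (adjusted p = 0.0459). Neither gene's groups overlapped, but both probe sets can detect related genes. Of 8 measured members 2 fell, against 0.117% of all genes, none rose and the median was −0.12, against 0.02 over all genes. A further member, fipr-2, read 6.80, 7.002 and 7.05 in UV+TiO2 worms and 7.92, 7.97 and 7.39 in UV worms (−0.81, adjusted p = 0.106). Without UV replicate 3 fipr-2 fell too, which makes 3 of 8, against 68 of 22548 probe sets. The other 5 members, fipr-14, fipr-16, fipr-17, fipr-24 and fipr-25, differed by −0.16 to 0.06. Over the 26 genes of the 3 families, the mean level of an array lay between 6.26 and 6.31 in the UV+TiO2 arrays and between 6.69 and 6.95 in the UV arrays.

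**Figure D2:**
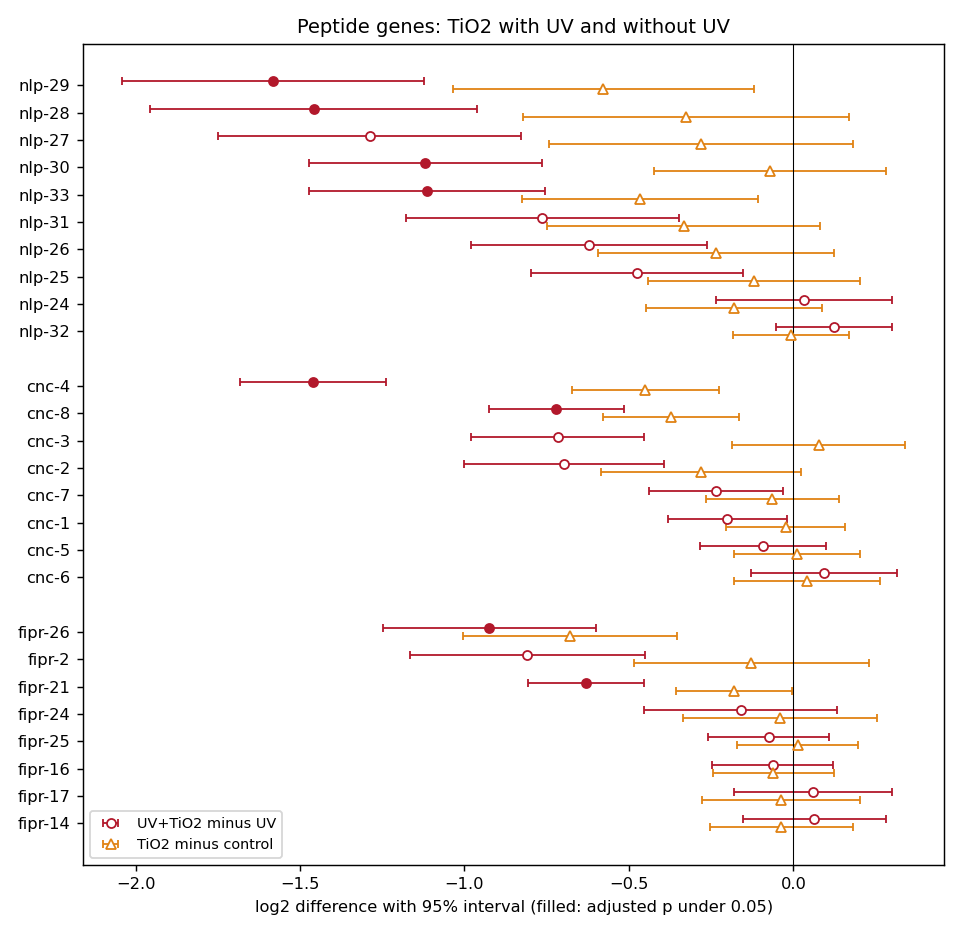
Log2 differences with 95% intervals (horizontal axis) for the 26 measured peptide genes, grouped as nlp, cnc and fipr and ordered by size. Circles are UV+TiO2 minus UV and triangles TiO2 minus control, filled where the adjusted p was under 0.05; 8 circles and no triangle are filled.

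None of the measured genes listed for epidermal immune signalling passed the test, and neither did the ligand gene dbl-1. Of 24 listed genes of epidermal immune signalling 22 were measured. At an unadjusted p under 0.05 none was lower and 4 were higher, against 3.31% and 3.18% of all genes. The median difference of the 22 genes was 0.14, and in 6 of 22 all UV+TiO2 arrays lay above all UV arrays, against 10% of all genes. The difference was below 0 in 3 of the 22, among them the MAP kinase gene pmk-1 (−0.05) and the factor gene elt-3 (−0.17). The MAP kinase gene pmk-3 averaged 7.45 ± 0.04 in UV+TiO2 worms and 6.93 ± 0.34 in UV worms (SD, n = 3 each; difference 0.52, adjusted p = 0.524). The adaptor gene tir-1, which starts the cascade, differed by 0.33 (adjusted p = 0.642), and vhp-1, a phosphatase gene that restrains MAP kinases, by 0.37 (adjusted p = 0.667). The factor gene sta-2 differed by 0.12 (95% interval −0.16 to 0.41), the transporter gene snf-12 by 0.22 (−0.13 to 0.57) and the ligand gene dbl-1 by 0.27 (−0.08 to 0.62). A gene whose transcription DBL-1 signalling represses, lon-1, read 8.02, 7.67 and 8.01 in UV+TiO2 worms and 8.74, 8.56 and 8.34 in UV worms (−0.65, adjusted p = 0.0955).

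The 12 called genes outside the peptide families are led by F23F12.12, with 9.33, 9.29 and 9.49 in UV+TiO2 worms and 10.82, 10.65 and 10.46 in UV worms. It fell 2.42-fold (log2 difference −1.27, SE 0.10, adjusted p = 0.000306), with the groups 0.97 apart, and its probe set can detect related genes. With cnc-4, it is 1 of the 2 genes that kept an adjusted p under 0.05 in each of the 15 alternative fits. F15E6.3 read 6.96, 6.67 and 6.53 in UV+TiO2 worms, against 8.20, 8.34 and 7.72 in UV worms (2.57-fold lower, adjusted p = 0.0112). The called probe set of F15E6.3 can detect related genes. A second probe set of that gene is not marked as doing so. It read 5.34, 5.78 and 5.81 in UV+TiO2 worms and 7.50, 7.65 and 6.54 in UV worms (difference −1.59, adjusted p = 0.0823). F15E6.4, which is 2 protein-coding genes away on chromosome IV, read 8.75, 8.43 and 8.70 in UV+TiO2 worms and 9.54, 9.72 and 9.37 in UV worms (1.89-fold lower, adjusted p = 0.0125). These 2 neighbours stood on opposite sides of control: F15E6.4 averaged 8.62 ± 0.17 in UV+TiO2, 9.54 ± 0.18 in UV and 7.73 ± 0.09 in control worms, and F15E6.3 averaged 6.72 ± 0.22, 8.08 ± 0.33 and 10.30 ± 0.15 in the same groups (SD, n = 3 each).

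The dynein light chain gene dlc-2 read 5.74, 6.46 and 6.28 in UV+TiO2 worms and 7.62, 7.58 and 7.19 in UV worms, a fall of 2.47-fold (adjusted p = 0.0125). Its UV+TiO2 arrays were spread more widely than those of most called genes, with an SD of 0.38. H40L08.2 read 7.81, 8.07 and 8.40 in UV+TiO2 worms and 9.19, 9.24 and 8.98 in UV worms, a fall of 2.05-fold (adjusted p = 0.0127). The chondroitin proteoglycan gene cpg-9 read 8.39, 8.54 and 8.63 in UV+TiO2 worms and 9.44, 9.42 and 9.14 in UV worms, a fall of 1.76-fold (adjusted p = 0.0183). Without UV this gene was far lower, at 5.32 ± 0.14 in TiO2 worms and 5.21 ± 0.14 in control worms (SD, n = 3 each). R12E2.15 read 7.18, 7.24 and 7.45 in UV+TiO2 worms and 8.01, 8.15 and 8.14 in UV worms (1.75-fold lower, adjusted p = 0.0133). F16B4.4 read 8.47, 8.58 and 8.69 in UV+TiO2 worms and 9.52, 9.42 and 9.22 in UV worms (1.75-fold lower, adjusted p = 0.0125). In both genes UV worms were already below control worms, which averaged 10.42 ± 0.09 and 10.42 ± 0.05 (SD, n = 3 each). C45B2.8 read 5.91, 5.76 and 5.59 in UV+TiO2 worms and 6.47, 6.74 and 6.496 in UV worms (1.76-fold lower, adjusted p = 0.0125).

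The smallest fall was also the most even. The gene grl-21, of the ground-like group related to hedgehog signals, read 6.51, 6.49 and 6.48 in UV+TiO2 worms, against 6.94, 6.95 and 6.91 in UV worms. The SD was 0.01 in UV+TiO2 worms and 0.02 in UV worms, and the fall was 1.35-fold (log2 difference −0.44, SE 0.07, adjusted p = 0.0459). Its adjusted p stayed under 0.05 in 4 of the 15 alternative fits. Of the called genes, oig-2 is the 1 outside the rule used to choose names, and it was named after its values were seen. This immunoglobulin-domain gene read 9.40, 9.46 and 9.68 in UV+TiO2 worms and 10.26, 10.36 and 10.07 in UV worms (1.64-fold lower, adjusted p = 0.0275). The gene nspd-9, of a nematode-specific peptide family, read 4.70, 4.83 and 4.82 in UV+TiO2 worms and 5.42, 5.47 and 5.35 in UV worms. It fell 1.55-fold (adjusted p = 0.0125). Its UV+TiO2 mean of 4.78 was the lowest of the called genes. The probe set was among the lowest 30% left out in 1 alternative fit. The 20 called genes were spread over all 6 chromosomes, with 6 on V, 5 on IV, 4 on X, 2 each on I and III and 1 on II.

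**Figure D3:**
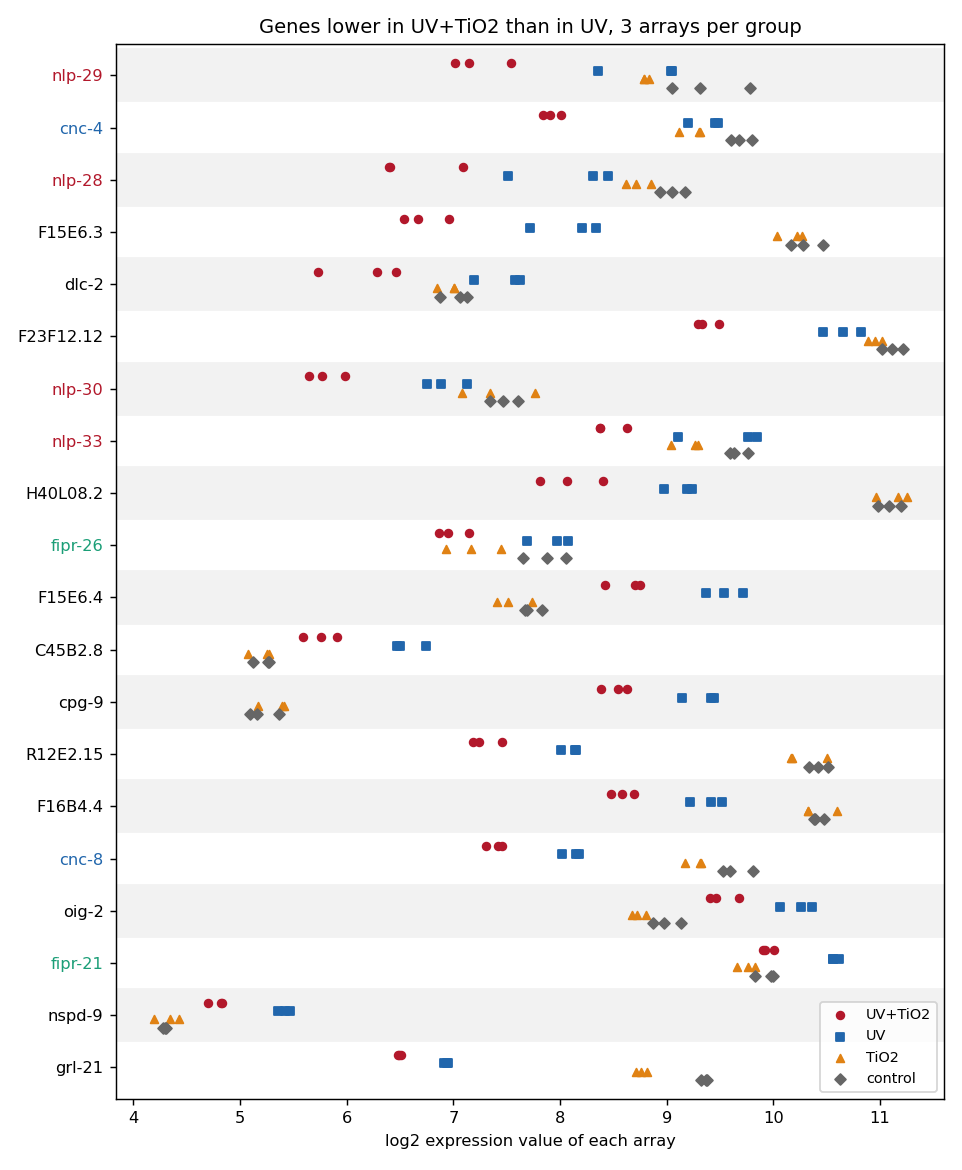
Log2 expression value of each array (horizontal axis) for the 20 called genes, ordered from the largest fall (top) to the smallest. Each row holds 3 UV+TiO2 (circles), 3 UV (squares), 3 TiO2 (triangles) and 3 control arrays (diamonds); the circles lie left of the squares in every row, while the control arrays lie on either side of them.

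No gene rose past the threshold with all 12 arrays. The 5 higher genes with the smallest p were F57B9.3, B0403.3, tag-120, tent-5 and F25B3.4, with differences of 0.43 to 0.70 and adjusted p of 0.078 to 0.106. The gene tent-5 encodes a cytoplasmic poly(A) polymerase known to lengthen the tails of mRNAs for secreted immune proteins. It read 9.54, 9.21 and 9.38 in UV+TiO2 worms and 8.85, 8.57 and 8.62 in UV worms (difference 0.70, SE 0.14, adjusted p = 0.106). Its groups did not overlap, and TiO2 and control worms averaged 9.38 ± 0.08 and 9.43 ± 0.30 (SD, n = 3 each). B0403.3 read 8.002, 7.73 and 7.84 in UV+TiO2 worms and 7.27, 6.97 and 7.45 in UV worms (0.63, adjusted p = 0.0955). It was the 1 gene that rose without UV replicate 3 (0.74, adjusted p = 0.0327).

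List members just outside the threshold included clec-1 and gst-10. The C-type lectin gene clec-1 read 7.49, 7.32 and 7.65 in UV+TiO2 worms and 8.63, 8.47 and 7.996 in UV worms (−0.88, adjusted p = 0.057). The glutathione S-transferase gene gst-10 read 7.52, 7.56 and 7.67 in UV+TiO2 worms and 8.43, 8.44 and 8.04 in UV worms (−0.72, adjusted p = 0.0634). Other genes were at least 2-fold lower by size but did not pass, and these were picked after their values were seen. They were T13F3.6 (−1.12, adjusted p = 0.0811), C39E9.8 (−1.08, adjusted p = 0.0767), F59C6.16 (−1.07, adjusted p = 0.102) and the neuropeptide gene flp-1. The arrays of flp-1 read 6.86, 6.73 and 7.67 in UV+TiO2 worms and 8.62, 8.40 and 7.32 in UV worms, so the groups overlapped and 1 array of each group stood with the other group (−1.03, adjusted p = 0.451).

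The comparison of UV with control shares the UV arrays with the comparison above, so an array that reads high in UV moves both, and the values are set side by side without a count of agreement. For nlp-29 the means were 7.23 ± 0.27 in UV+TiO2 worms, 8.81 ± 0.40 in UV worms and 9.38 ± 0.37 in control worms (SD, n = 3 each). For cnc-4 they were 7.92 ± 0.09, 9.38 ± 0.16 and 9.69 ± 0.10 in the same groups. In these 2 genes the 3 groups stood in the same order. For cnc-8 UV+TiO2 worms averaged 7.39 ± 0.08, UV worms 8.11 ± 0.09 and control worms 9.64 ± 0.15. The gene fipr-21 differed from these, with 9.95 ± 0.06 in UV+TiO2 worms, 10.58 ± 0.03 in UV worms and 9.93 ± 0.09 in control worms, so the UV+TiO2 and control means lay 0.01 apart. For nlp-33 UV+TiO2 worms averaged 8.46 ± 0.15, UV worms 9.57 ± 0.40 and control worms 9.66 ± 0.09.

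Without UV, TiO2 gave 1 called probe set of 22548 against control (0.00443%), that of grl-21, and 4.55% of probe sets had an unadjusted p under 0.05. These 6 arrays are not shared with the UV+TiO2 and UV groups. The level of grl-21 averaged 8.76 ± 0.05 in TiO2 worms and 9.36 ± 0.03 in control worms (SD, n = 3 each; log2 difference −0.60, adjusted p = 0.0394). With UV it was −0.44, and the difference between the 2 settings was 0.16 (95% interval −0.06 to 0.38). Of the 20 called genes 16 had a lower mean in TiO2 than in control worms, against 50.7% of all probe sets. With UV, 21 of the 26 peptide genes were lower with TiO2, and without UV 22, against 7613 and 8677 of all 17118 genes. In both settings 18 of the 26 were lower, a count that was not made over all genes. Across these 26 genes the 2 differences correlated with a Pearson r of 0.74. Over all 17118 genes r was 0.08. Genes are not independent replicates, and neighbouring and cross-detected genes share signal, so these counts and correlations are descriptions only. For nlp-29 the TiO2 difference was −1.58 with UV and −0.58 without UV, for cnc-4 −1.46 with UV and −0.45 without UV, and for fipr-26 −0.92 with UV and −0.68 without UV. For F23F12.12 the difference was −1.27 with UV and −0.16 without UV.

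Whether the TiO2 difference itself depended on UV was tested by the interaction, the TiO2 difference with UV minus that without UV. With limma 0 of 22548 probe sets passed (0%), and 5.15% had an unadjusted p under 0.05. The smallest p belonged to F23F12.12, with an interaction of −1.11 (95% interval −1.43 to −0.80, adjusted p = 0.12). Next came cnc-4, at −1.01 (−1.32 to −0.70, adjusted p = 0.143). Then cpg-9, nspd-9 and F15E6.3 followed with −0.93, −0.66 and −1.23 and an adjusted p of 0.47 each. For nlp-29 the interaction was −1.004 (−1.65 to −0.36, adjusted p = 0.827). These genes were chosen in part for a large difference on the UV arrays, which the interaction contains, so their intervals are not independent of that choice. A dependence of the TiO2 response on UV was therefore not called for any gene at this number of arrays.

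**Figure D4:**
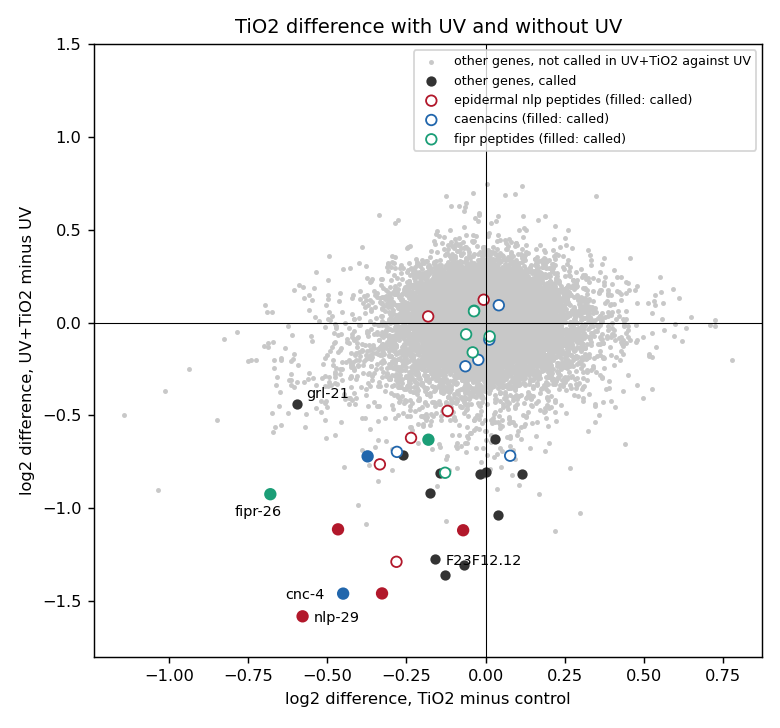
Each point is a gene, with the log2 difference TiO2 minus control on the horizontal axis and UV+TiO2 minus UV on the vertical axis; the 4 groups of arrays enter 1 axis each. Filled coloured and black points are the 20 genes called on the vertical axis; most peptide genes lie below and left of 0, and grl-21 is the gene called on both axes.

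Of 20 sentinel genes of stress, repair, immunity and adulthood, all measured, nlp-29 was the 1 that fell and none rose. The heat shock gene hsp-16.2, a small chaperone, read 9.57, 9.42 and 9.70 in UV+TiO2 worms and 9.74, 9.61 and 9.44 in UV worms, so the groups overlapped (difference −0.03, 95% interval −0.37 to 0.31). The infection-response gene irg-2 differed by −0.01 (−0.35 to 0.33), the mitochondrial chaperone gene hsp-6 by 0.01 (−0.22 to 0.23) and the endoplasmic reticulum chaperone gene hsp-4 by −0.05 (−0.23 to 0.12). The inducible heat shock gene hsp-70 differed by −0.28 (−0.72 to 0.17), the glutathione synthesis gene gcs-1 by −0.03 (−0.22 to 0.16) and the cytochrome P450 gene cyp-35A2 by −0.20 (−0.50 to 0.09). The superoxide dismutase gene sod-3 differed by 0.00 (−0.31 to 0.32), and the metallothionein genes mtl-1 and mtl-2 by −0.13 (−0.63 to 0.37) and 0.01 (−0.28 to 0.29). These intervals leave room for differences of up to about that size in either direction. The oxidative stress reporter gene gst-4, a target of the factor SKN-1, read 7.94, 8.26 and 8.42 in UV+TiO2 worms and 8.78, 8.74 and 8.54 in UV worms. Its groups did not overlap, but the difference of −0.48 did not pass (adjusted p = 0.301). The apoptosis gene egl-1 differed by −0.20 (−0.42 to 0.03) and the translesion polymerase gene polh-1 by −0.13 (−0.53 to 0.26).

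By list, 37 of 43 had no member past the threshold, 6 had a member that fell and none had a member that rose. With 0.117% of all genes called, a list with no called member is close to that background. Besides the 3 peptide families, the 6 were the osmotic response and epidermis lists, each through nlp-29 alone, and the hedgehog-related list, through grl-21. The medians of the 40 lists other than the peptide families ran from −0.43 to 0.20, and 38 of them lay within 0.2 of 0. Of 29 genes of oxidative stress and SKN-1 none passed (median −0.03), and likewise none of 15 heat shock genes (0.00), 22 endoplasmic reticulum stress genes (−0.01) and 12 mitochondrial stress genes (−0.08). Without UV replicate 3, 1 of the 29 oxidative stress and SKN-1 genes fell, as did 1 glutathione S-transferase, 1 UDP-glucuronosyltransferase, 1 TGF-beta and 1 fasting gene, and the hedgehog-related list had no fall. Over all probe sets 68 of 22548 fell in that fit. The oxidative stress and glutathione S-transferase lists share members, gst-10 among them, so their falls may be of the same gene. None of the 21 genes for DNA damage signalling and apoptosis passed (median −0.09) and none of 23 of nucleotide excision and translesion (−0.13). In these 2 lists 6 and 7 genes lay lower without overlap, and 0 and 1 higher, against 8.72% and 10% of all genes. With array SD as a covariate their medians were −0.03 and −0.01. Of the other immune families, none of 220 C-type lectin, 18 saposin-like and 16 lysozyme genes passed, with medians of 0.05, 0.10 and 0.10. Of the C-type lectins 1 fell without UV replicate 3, and likewise 1 with median centring and 1 after quantile normalization.

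No gene of the lists of major sperm proteins, other sperm genes, numbered collagens and cuticlins passed the test. The major sperm proteins, small proteins that drive sperm crawling, had a median of −0.43 over 23 genes, with none called. In 20 of the 23 all UV+TiO2 arrays lay below all UV arrays, against 8.72% of all genes, and their mean level per array was 10.56 to 11.03 in UV+TiO2 worms and 11.18 to 11.37 in UV worms. Their sequences are close to identical, so the 23 are not separate measurements. Of 17 other sperm genes 4 had no overlap downward and 1 upward, against 8.72% and 10% of all genes, with a median of −0.08. Of these 17 genes 12 were below 0, among them nspd-1 (−0.48) and nspd-2 (−0.29). The called gene nspd-9 bears the same family name but is not on the sperm list. Among 128 numbered collagens of the cuticle none was called, 33 lay lower without overlap and 4 higher, against 8.72% and 10% of all genes, and the median was −0.05. The 34 cuticlins had a median of 0.13, with 1 gene lower and 5 higher without overlap. The collagens with the smallest p were col-91 (−0.56, adjusted p = 0.084), col-39 (−0.56, adjusted p = 0.0954) and col-120 (−0.59, adjusted p = 0.0955).

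Among markers of cell types, nlp-29 was the 1 called gene. The epidermis, which makes the peptides, had a marker median of −0.05 over 18 genes, with a mean level per array of 8.48 to 8.60 in UV+TiO2 worms and 8.66 to 8.71 in UV worms. That list holds nlp-29 itself. Intestinal markers had a median of 0.13 over 15 genes, with 4 higher at an unadjusted p under 0.05, against 3.18% of all genes. Among them, the cathepsin B-like protease gene cpr-6 read 11.67, 11.41 and 11.69 in UV+TiO2 worms and 11.35, 11.04 and 11.16 in UV worms (0.41, adjusted p = 0.301). The 5 measured yolk protein genes, which the intestine expresses, had a median of 0.20, and vit-2 differed by 0.27 (adjusted p = 0.421). Body wall muscle markers had a median of −0.13 over 17 genes, of which 7 lay lower without overlap, against 8.72% of all genes. The troponin gene tni-1 read 9.05, 9.09 and 9.03 in UV+TiO2 worms and 9.47, 9.36 and 9.39 in UV worms (−0.35, adjusted p = 0.134). Medians were −0.02 for neurons, −0.05 for the pharynx, −0.02 for the germline and 0.03 for late embryos and early larvae. The part of these marker differences in the falls of the peptide genes was not tested.

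**Figure D5:**
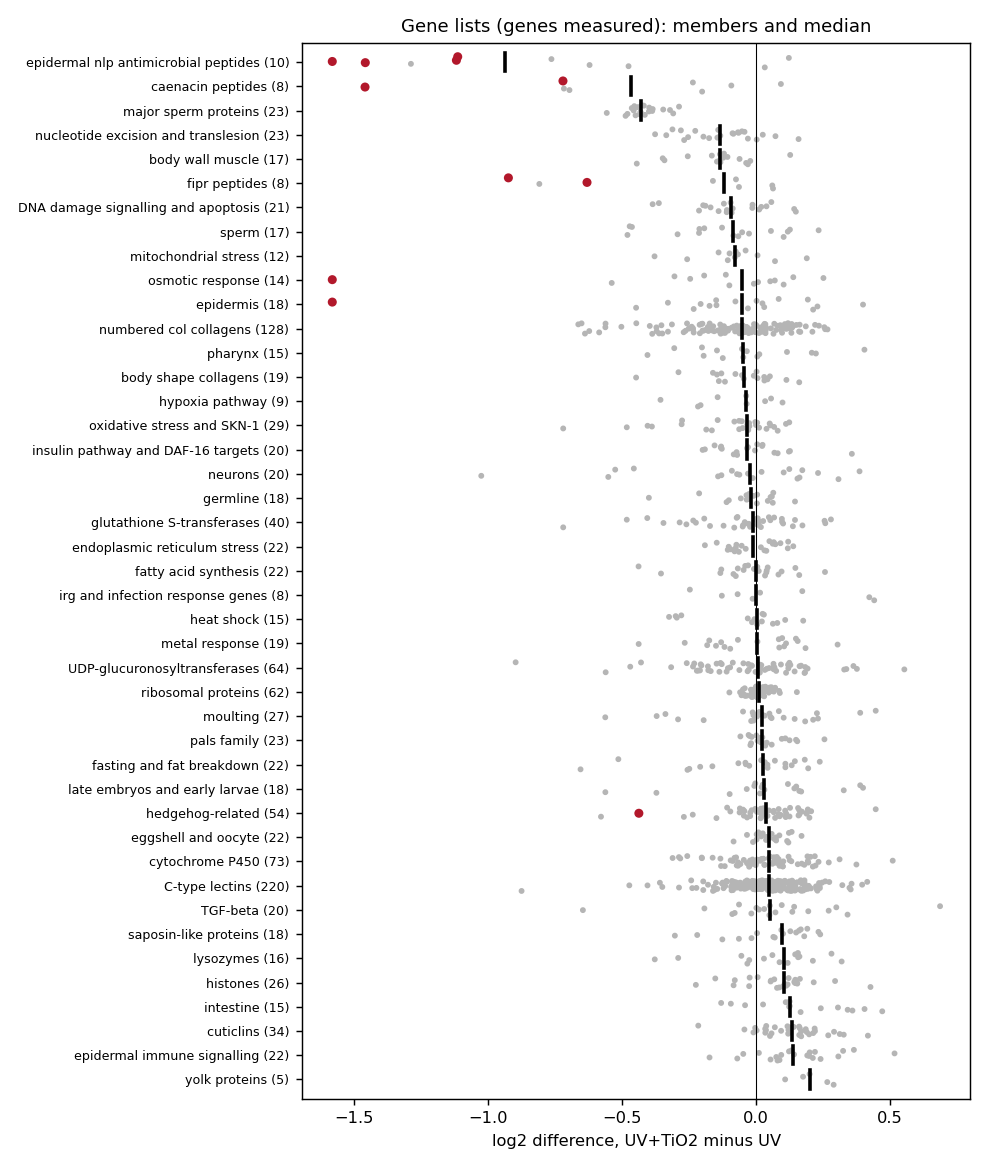
Log2 difference UV+TiO2 minus UV (horizontal axis) of each measured member of 43 gene lists (grey points, red where called), with the list's median as a black bar and the number of genes in brackets. The epidermal nlp peptides are at the top with a median of −0.94, and most other medians lie close to 0.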

How the data were processed

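Whole-worm RNA, 300 ng from each sample, was copied into biotin-labelled strands and hybridised to 1 Affymetrix array a sample, with 3 arrays in each of the 4 groups. Per the submitters' processing notes, the authors used GCOS, the Affymetrix Expression Console and RMA (the versions are not stated there), and deposited 1 log2 value per probe set. RMA includes a step that evens out the distributions of arrays, although the deposited columns still differed in SD (2.22 to 2.33), and a general loss of RNA in a group might not show.

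From 22625 probe sets 77 controls were left out, with no filter on low values. A mean per group was estimated on the 12 arrays by lmFit and eBayes of limma (3.58.1, R 4.3.3; 8 residual and 4.37 prior degrees of freedom, no replicate block). Benjamini-Hochberg adjustment covered 22548 probe sets, with a threshold of 0.05; "rose", "fell" and "called" mean past it. Names are those of the platform annotation, which gave 20766 probe sets 1 symbol, 887 several and 895 none, and 20701 matched RefSeq (WBcel235), used for names and neighbours only. A gene is shown by its probe set with the highest mean (17118 genes). Suffixes _x_at and _s_at mark probe sets that can detect related genes. The code was checked on simulated data.

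Named genes come from a rule: the 15 largest called falls without overlap, the 5 higher genes with the smallest p, none of which passed, the 5 smallest interaction p-values, all peptide genes, up to 3 members per list, and 20 sentinels. The comparison, lists and sentinels were chosen with earlier results of these data known. Replicate numbers were not used to pair the samples in the main fit. Deviations of same-numbered UV+TiO2 and UV arrays correlated at −0.04, 0.14 and 0.27 for replicates 1, 2 and 3. The best-matching UV array had the same number for UV+TiO2 replicate 3 only. These 3 values cannot settle whether samples were paired. Alternatives were a replicate block, a robust prior that follows the level, leaving out the lowest 30% of probe sets, renormalization, median centring, array weights, 1 probe set per gene, 6 arrays only and each array left out. A covariate for the SD of an array was chosen after seeing the data.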

Additional observations from a re-analysis of the deposited data

How the results depend on the processing

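All 20 called genes had a difference below 0 in every alternative in which they were tested. The count of falls was 17 with the replicate block (15 of the 20 kept) and 17 with only the 6 arrays (14 kept). It was 20 without the lowest 30% of probe sets, where 18 of the 19 called genes still tested were kept. It was 23 after quantile normalization, 27 with 1 probe set per gene and 28 with median centring or the robust prior. It moved to 32 with array SD as a covariate (20 kept) and to 878 with array weights, which also gave 978 rises; the second UV array had a weight of 5.82 against 0.279 for the first control array. Leaving out single arrays gave 2 to 68 falls and 0 to 1 rises. The falls were 9, 3 and 3 without UV+TiO2 replicates 1, 2 and 3, and 2, 2 and 68 without UV replicates 1, 2 and 3. The interaction had 109 negative and 111 positive calls with array weights, 1 negative call with the robust prior, and 0 in all other alternatives. With array weights 16 of the 26 peptide genes and 18 of the 23 major sperm proteins fell, against 878 of 22548 probe sets. In that fit 6 of the 22 immune signalling genes rose, against 978 of 22548 probe sets. Other lists gained calls too, among them numbered collagens (20 of 128 fell, 1 rose) and C-type lectins (6 of 220 fell, 8 rose). The family medians stayed below 0 throughout, at −1.12 to −0.79 for nlp, −0.72 to −0.42 for cnc and −0.63 to −0.07 for fipr. Apart from cnc-4 and F23F12.12, every call ended when UV replicate 1 or UV replicate 2 was left out; the cause of these moves was not tested.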
